A study of Sus scrofa with 12 samples.

Results

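The insulin-like growth factor (IGF) ligands IGF1 and IGF2 and their receptors IGF1R and IGF2R were examined for N6-methyladenosine (m6A) in the longissimus dorsi, the long back muscle, of pigs aged 5 days. The groups were Large White, a breed kept for fast lean growth, and Ningxiang, a Chinese indigenous breed, with 3 replicates of each. In each replicate, fragmented mRNA was immunoprecipitated with an m6A antibody and sequenced beside an unenriched input, and the authors deposited a list of enriched regions (peaks) per replicate. The members were taken by gene name alone, as every peak that the lists assign to IGF1, IGF2, IGF1R or IGF2R. All 4 genes had peaks, 46 in total among the 13487 peaks on 2159 genes. Whether the replicates were separate pigs is not stated in the labels; the spread behind each p-value may therefore be technical.

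IGF1 and IGF2 are secreted growth factors that drive the proliferation and differentiation of muscle precursor cells. Both act through IGF1R, a receptor tyrosine kinase that signals through the insulin receptor substrates to the phosphoinositide 3-kinase and MAP kinase pathways. IGF2R, also the cation-independent mannose 6-phosphate receptor, has no kinase; it carries lysosomal enzymes and takes IGF2 into the cell for degradation. IGF2 is an imprinted gene expressed from the paternal allele and a classic locus of muscle growth in pigs. The mark m6A is written on mRNA in the nucleus, is often found near stop codons and in long exons, and is read by proteins that change the stability and translation of the transcript.

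The lists held 2373, 2214 and 2533 peaks in Large White replicates 1, 2 and 3 and 2034, 2111 and 2222 in Ningxiang replicates 1, 2 and 3. The tissue label was checked on markers: 10 of 15 skeletal muscle markers had a peak, where 11 have a curated RefSeq transcript. A peak in all 6 lists was found on 9, among them CKM, DES, MYH1 and RYR1, beside 35.7% of all genes with a peak. Peaks were also listed on 4 of 5 fat cell markers, 3 of 5 fibroblast markers, 3 of 4 endothelial markers, 1 of 5 blood and immune cell markers and 1 of 3 nerve markers. In the same order, 5, 4, 3, 3 and 1 of the listed markers have such a transcript. In that order 1, 2, 2, 1 and 0 had a peak in all 6 lists. The marker counts alone do not establish the tissue. From 9 to 10 muscle markers and from 2 to 4 fat cell markers had a peak in a list; their part in any result was not tested. Sequencing depth is unknown, and a missing peak means only that the authors' calling threshold was not met. A peak also depends on how much of the mRNA was present, and the level of each transcript was not analysed here, so methylation and transcript level cannot be told apart.

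Every value below is tied to 1 curated transcript per gene, and 3 of these transcripts are shorter at the 3′ end than the RefSeq gene of the same build (Sscrofa11.1, the susScr11 of the lists). IGF1 was annotated to NM_214256 on chromosome 5, from 81781261 to 81848033 on the plus strand, and the RefSeq gene runs 61220 bases further at the 3′ end. IGF2 was annotated to NM_213883 on chromosome 2, from 1472038 to 1496154 on the minus strand, with 2855 further bases in the RefSeq gene. IGF1R was annotated to NM_214172 on chromosome 1, from 137390085 to 137690430 on the minus strand, with 6462 further bases. For IGF2R, NM_001244473 on chromosome 1 from 7369485 to 7472480 on the minus strand ends where the RefSeq gene ends. A peak that reaches the listed 3′ end of IGF1, IGF2 or IGF1R may therefore be cut off there. Exons are numbered from the 5′ end of each transcript.

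IGF2, the fetal and neonatal growth factor, had a single peak in every list, at the same place. The peak lay in exon 5 of 5 and began on the last listed base of the transcript in all 6 lists. It covered 269, 269 and 239 exonic bases in Large White replicates 1, 2 and 3, against 239, 239 and 298 in Ningxiang replicates 1, 2 and 3. The 239 bases from 1472038 to 1472276 on chromosome 2 were shared by all lists, and only the 5′ edge of the peak varied, by 1 or 2 steps of about 30 bases. Over all members, 33 of 33 steps between neighbouring peak edges under 200 bases were a multiple of 30 to within 1 base. The breeds overlapped, at 259 ± 17.3 bases in Large White and 259 ± 34.1 bases in Ningxiang (SD, n = 3 each; exact permutation test, two-sided p = 1, adjusted p over all 2159 genes 1).

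The IGF2 peak was among the strongest of each list by the authors' p-value. It ranked 5, 4 and 6 in Large White replicates 1, 2 and 3, and 14, 14 and 11 in Ningxiang replicates 1, 2 and 3. The ranks of the breeds did not overlap, but ranks within separate lists of unknown depth cannot measure a change between breeds. How many of all peaks have ranks without overlap was not computed, so the ranks have no background. The only reading made of them is that the peak was near the top of each list. The first rank was held in all 6 lists by a peak of CKM, the muscle creatine kinase. The log10 p was -4450, -4820 and -3260 in Large White replicates 1, 2 and 3, and -1320, -1610 and -1910 in Ningxiang replicates 1, 2 and 3. These log10 p values have the same limits as the ranks.

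By fold enrichment the IGF2 peak stood less high. The authors' fold, the immunoprecipitated over the input signal of the peak, was 3.75, 3.46 and 4.18 in Large White replicates 1, 2 and 3, and 3.28, 3.44 and 4.84 in Ningxiang replicates 1, 2 and 3. From 75.0% to 87.4% of the peaks of the same list had a lower fold. All 6 values lay above the median fold of their lists, which ran from 2.42 to 2.60.

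**Figure D1:**
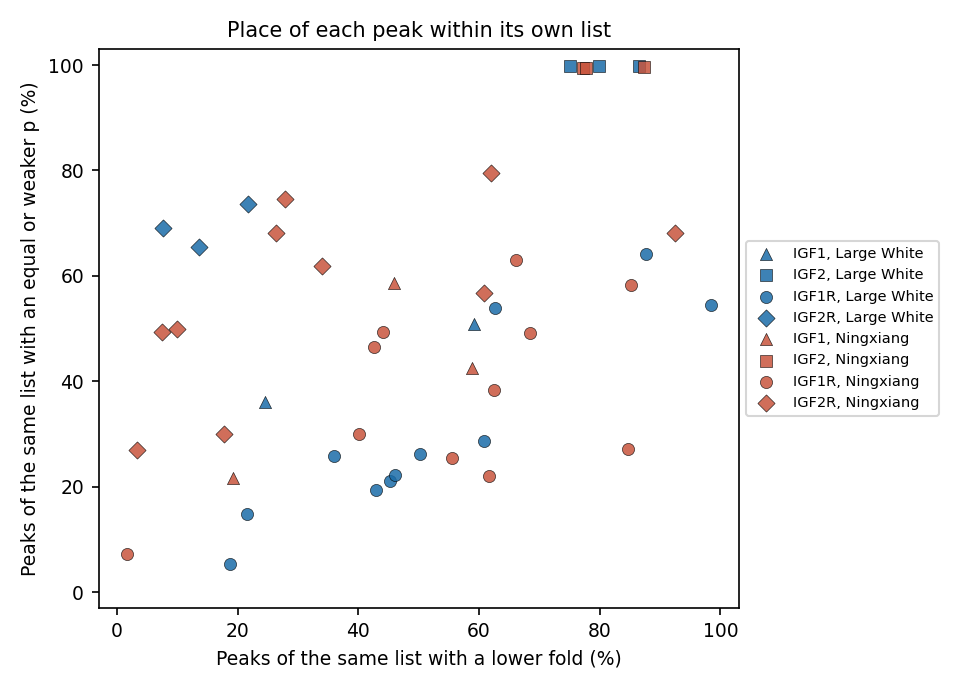
Each point is 1 peak of IGF1 (triangles), IGF2 (squares), IGF1R (circles) or IGF2R (diamonds) in Large White (blue) or Ningxiang (red) lists. The horizontal axis gives the percentage of peaks of the same list with a lower fold and the vertical axis the percentage with an equal or weaker p; the 6 IGF2 peaks sit together at the top, while IGF1R peaks spread from 1.67% to 98.4% of their list by fold.

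IGF1, the growth factor of postnatal life made in liver and locally in muscle, had a peak in 5 of 6 lists. No peak was listed in Large White replicate 1. The peak covered 178 and 237 exonic bases in Large White replicates 2 and 3, and 208, 119 and 207 in Ningxiang replicates 1, 2 and 3. These values overlap between breeds.

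In 4 of the 5 lists the IGF1 peak crossed the last splice junction of the listed transcript, with blocks that end at 81830956 and begin again at 81847814 on chromosome 5. In Ningxiang replicate 3 it lay in the last exon alone and reached the last listed base, at 81848033. The 5 peaks shared 89 bases, from 81847827 to 81847915, and all were annotated to the 3′ untranslated region. Folds were 2.07 and 2.70 in Large White replicates 2 and 3, and 2.35, 1.98 and 2.85 in Ningxiang replicates 1, 2 and 3. From 19.3% to 59.2% of the peaks of the same list had a lower fold, so the IGF1 fold ran from low to middling for its list. Counting the absent peak as 0, coverage was 138 ± 123 bases in Large White and 178 ± 51.1 bases in Ningxiang (SD, n = 3 each; exact permutation test, two-sided p = 0.8, adjusted p over all genes 1). Without Large White replicate 1 the difference changed sign, to 29.5 bases for Large White minus Ningxiang.

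**Figure D2:**
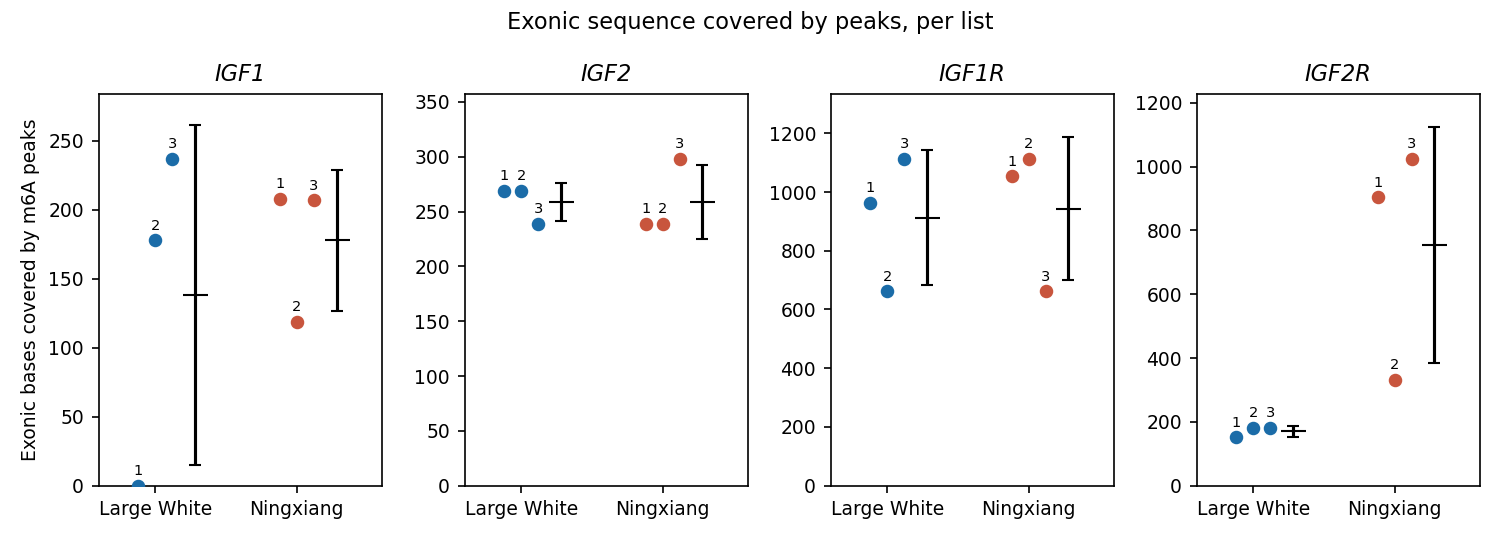
Exonic bases covered by m6A peaks in each list, with 1 panel per gene, Large White in blue and Ningxiang in red; points are lists labelled with the replicate number, and the bar beside them is the mean ± SD (n = 3). IGF2R is the panel where the breeds do not overlap, at 151 to 181 bases in Large White and 332 to 1024 in Ningxiang.

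IGF1R, the signalling receptor of both ligands, carried the most peaks of the 4 genes. It had 4, 3 and 4 peaks in Large White replicates 1, 2 and 3, and 4, 4 and 3 in Ningxiang replicates 1, 2 and 3. The peaks covered 963, 663 and 1113 exonic bases in Large White replicates 1, 2 and 3, against 1054, 1113 and 663 in Ningxiang replicates 1, 2 and 3. Each breed thus held a list at the low value of 663 bases and another at the high value of 1113. Coverage was 913 ± 229 bases in Large White and 943 ± 245 bases in Ningxiang (SD, n = 3 each; exact permutation test, two-sided p = 1, adjusted p over all genes 1).

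Joining peaks that share an exonic base gave 5 sites along IGF1R, and 18 of its 22 peaks lay in 3 sites found in all 6 lists. Of the 22 peaks, 16 crossed a splice junction. The site nearest the 5′ end joined exons 2 and 3 of 21, across the long intron between them, and its lists shared 241 exonic bases, 215 of them in exon 2 from 137638041 to 137638255. In the human gene these 5′ exons encode part of the extracellular region that binds the ligand. Its fold ranged from 2.28 to 2.97.

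The next site joined exons 6 and 7, from 137433110 to 137435188. Its fold ranged from 1.67 to 2.71, and its lists shared 91 bases of exon 6. In Ningxiang replicate 3 the peak lay in exon 6 alone. Its log10 p ranged from -3.35 to -7.13.

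The third shared site lay at the 3′ end of the listed transcript, in exon 21. Its lists shared 121 bases, from 137390235 to 137390355, which begin 150 bases from the last listed base. In Large White replicate 1 the peak reached that base, and in Large White replicate 3 it also took 28 bases of exon 20. Its fold was 14.0, 2.58 and 4.34 in Large White replicates 1, 2 and 3, and 3.79, 4.04 and 2.76 in Ningxiang replicates 1, 2 and 3. The fold of 14.0 exceeded that of 98.4% of the peaks in its list and stood apart from the other 5 values. In all 6 lists this site had the highest fold of any IGF1R peak.

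The remaining 2 sites of IGF1R were in fewer lists. A site joining exons 10 and 11 was listed in Large White replicates 1 and 3, with folds of 2.45 and 1.99, and in Ningxiang replicate 2, with 3.05. A site joining exons 18 and 19, in the part that encodes the tyrosine kinase in the human gene, was listed in Ningxiang replicate 1 only, with a fold of 2.69. Neither separated the breeds.

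Ordered by p in place of fold, the leading IGF1R site differed between the breeds. The 3′ end had the lowest p in 3 of 3 Large White lists, and the site of exons 2 and 3 in 3 of 3 Ningxiang lists. The log10 p at the 3′ end was -11.3, -5.43 and -15.7 in Large White replicates 1, 2 and 3, where exons 2 and 3 had -5.89, -5.40 and -12.0. In Ningxiang replicates 1, 2 and 3 the 3′ end had -5.58, -12.2 and -5.57, and exons 2 and 3 had -9.29, -14.2 and -9.38. In Large White replicate 2 the sites were nearly level. Of the 105 genes with 2 or more sites in all 6 lists, 3 showed such a pattern, or 2.86%; the others were FYCO1 and XIRP1. By fold the pattern was absent, since the 3′ end led in every list. The pattern was noticed after the values were seen and was not tested.

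**Figure D3:**
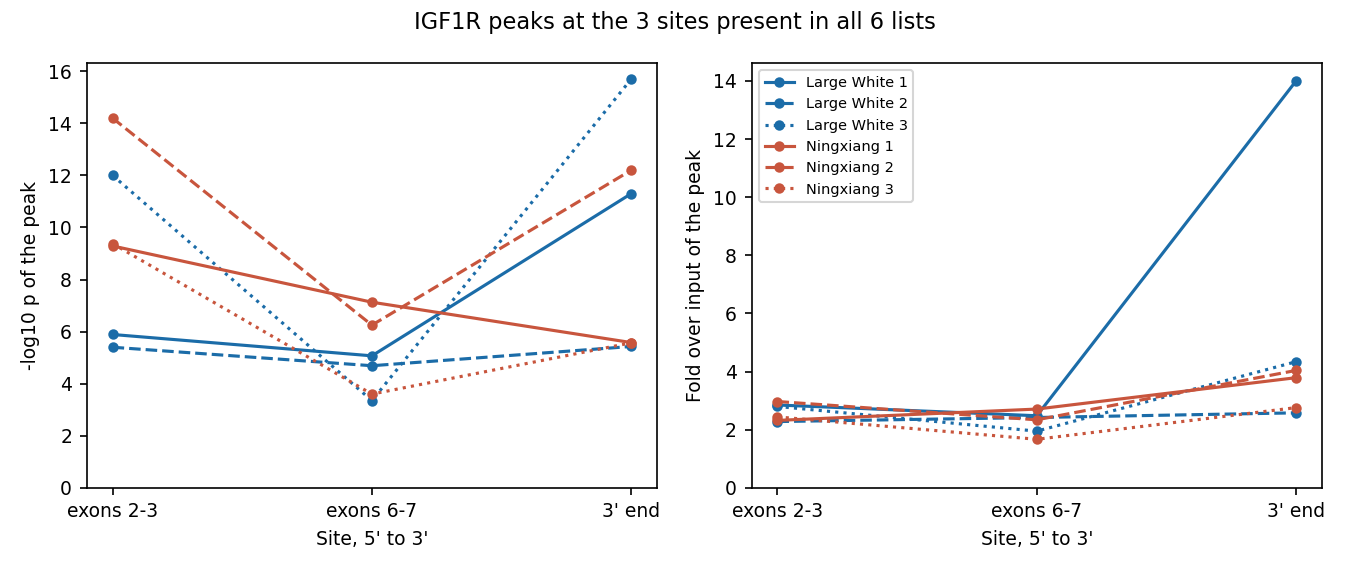
IGF1R peaks at the 3 sites present in all 6 lists, ordered 5′ to 3′, with -log10 p on the left and fold over input on the right; each line is a list, Large White in blue and Ningxiang in red. By p the 3′ end is highest in Large White lists and exons 2 and 3 in Ningxiang lists, while by fold the 3′ end is highest in all 6, up to 14.0 in Large White replicate 1.

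IGF2R, the receptor that clears IGF2, was the member whose peak number and coverage separated the breeds. It had 1, 1 and 1 peak in Large White replicates 1, 2 and 3, against 4, 2 and 4 in Ningxiang replicates 1, 2 and 3. The peaks covered 151, 181 and 181 exonic bases in Large White replicates 1, 2 and 3, and 904, 332 and 1024 in Ningxiang replicates 1, 2 and 3. Every Large White list lay below every Ningxiang list on both measures.

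Mean coverage of IGF2R was 171 ± 17.3 bases in Large White and 753 ± 370 bases in Ningxiang (SD, n = 3 each), a difference of -582 bases for Large White minus Ningxiang. The exact two-sided permutation p was 0.1, the smallest that 3 against 3 allows, and the adjusted p over all 2159 genes was 0.935, so the difference did not pass the correction. For the number of peaks the difference was -2.33, with an exact permutation p of 0.1 (n = 3 per breed) and an adjusted p of 1. Among the 2159 genes, 2.92% had less coverage in every Large White list than in any Ningxiang list and 7.78% had more. For the number of peaks the shares were 1.34% and 2.5%. The count for the members was 1 of 4 with less coverage and fewer peaks in Large White, and 0 of 4 with more; with 4 genes this is not set apart from those shares.

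All 6 lists shared a single IGF2R site, which joined exons 43 and 44 of 48 and lay in Ningxiang replicate 1 also in exon 42. Its lists shared 121 exonic bases, at 7378481 to 7378522 and 7379091 to 7379169 on chromosome 1. Its fold was 2, 1.89 and 1.79 in Large White replicates 1, 2 and 3, and 2.02, 1.79 and 2.13 in Ningxiang replicates 1, 2 and 3. The folds overlapped between breeds and were low for their lists, since 7.53% to 27.9% of the peaks of a list had a lower fold. The shared site took 151 to 181 bases in Large White lists and 181 to 301 in Ningxiang lists, so most of the Ningxiang excess in replicates 1 and 3 lay elsewhere on the transcript.

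The other 4 IGF2R sites were listed in Ningxiang alone, none of them in all 3 replicates. At the 3′ end, in exons 46 to 48, peaks were listed in Ningxiang replicates 1 and 3, and 2 of the 3 began on the last listed base, at 7369485. In the human gene the last exons encode the cytoplasmic tail of the receptor, which holds its sorting signals, together with the 3′ untranslated region. In Ningxiang replicate 1 there were 2 peaks, with folds of 4.76 and 2.14, and in Ningxiang replicate 3 a peak with 2.95. A site joining exons 15 and 16 was listed in Ningxiang replicates 2 and 3, with folds of 1.96 and 1.71. Exons 34 and 35 carried a peak of fold 1.79 in Ningxiang replicate 1, and exons 11 to 13 a peak of fold 2.92 in Ningxiang replicate 3, with all 141 bases of exon 12 inside it. In the human gene the exons of these 3 sites encode extracytoplasmic repeats of the receptor.

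No IGF2R region had a peak in 3 of 3 replicates of a breed and 0 of 3 of the other. After merging exonic blocks over the lists, 11 of its 13 regions had a block in Ningxiang lists alone, and 2 had one in all 6 lists. Most of the 11 were in a single list, where a region falls in 1 breed by definition. Blocks of the same spliced peak count as separate regions. The share of regions in 1 breed alone was not computed over all genes, so the count of 11 has no background. Each Ningxiang list held more IGF2R peaks than any Large White list, a difference that did not pass the correction over all genes. No single site was listed in every Ningxiang replicate and in no Large White replicate. When each list was reduced to its stronger 50% by p, Ningxiang replicate 2 lost both of its peaks and the breeds overlapped, at 151, 181 and 181 bases in Large White replicates 1, 2 and 3, and 723, 0 and 873 in Ningxiang replicates 1, 2 and 3 (exact permutation p = 0.4, n = 3 per breed). When all lists were shortened to the 2034 strongest peaks, the IGF2R values were as given for all peaks.

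**Figure D4:**
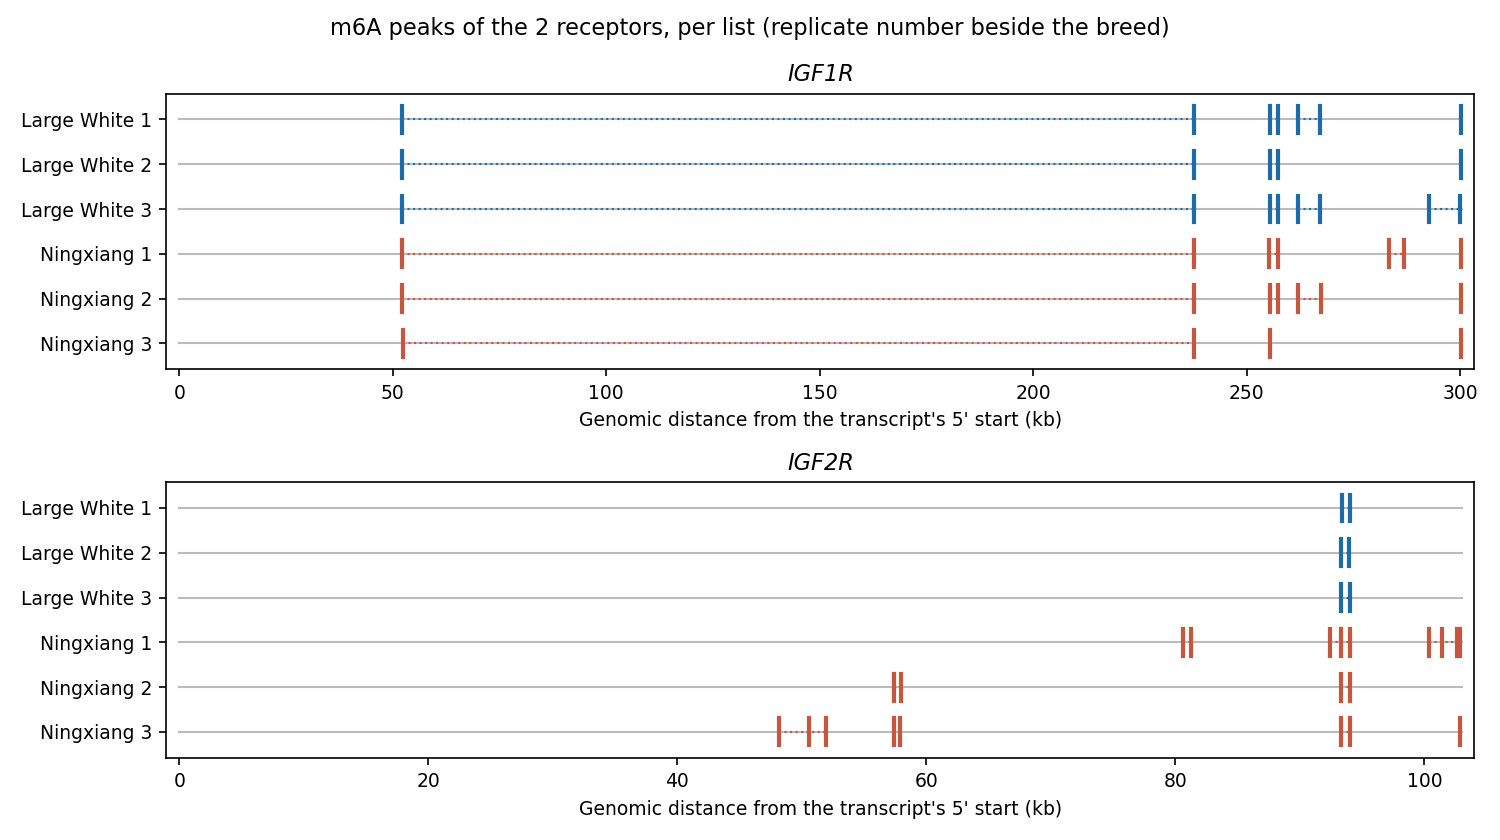
Peaks of IGF1R (upper panel) and IGF2R (lower panel) by genomic distance from the transcript's 5′ start in kb, with a row per list, Large White above Ningxiang; each vertical tick is an exonic block of a peak, drawn wider than scale, and dotted lines join the blocks of a peak across introns. IGF1R has 3 sites in all 6 rows, while IGF2R has 1, with 4 further sites in Ningxiang rows only.

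A peak in all 6 lists was found on 3 of the 4 members, IGF2, IGF1R and IGF2R, where 35.7% of all genes with a peak had one in every list. Merged exonic regions with a block in all 6 lists numbered 1 of 1 for IGF2, 4 of 10 for IGF1R, 2 of 13 for IGF2R and 0 of 2 for IGF1, against 15.1% of all regions. The 15.1% includes regions of genes without a peak in every list, which cannot have a block in all 6. The 4 regions of IGF1R are blocks of its 3 sites found in all 6 lists. A block in the last 300 genomic bases of the listed transcript was present in all 6 lists for IGF2 and IGF1R, 2 of 4 members. Over all 2159 genes this held for 165, or 7.64%. Only the 771 genes with a peak in every list could count, so 7.64% is a low background for IGF2 and IGF1R. For IGF1 such a block was in 2 of 3 Large White lists and 3 of 3 Ningxiang lists, and for IGF2R in 0 of 3 Large White lists and 2 of 3 Ningxiang lists. The window was chosen after the peaks were seen. A gene with more exons or more RNA can carry more peaks, and these shares were not matched for either.

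Around the members, 27 of 75 listed genes of the IGF pathway had a peak, and 12 of the 27 had one in all 6 lists, or 44.4%, beside 35.7% of all genes with a peak; 32 of the 75 have a curated transcript under their symbol in the RefSeq table. By group, a peak was listed on 8 of 12 binding proteins and their modifiers, where 10 of the 12 have such a transcript, and on 5 of 6 genes of the growth hormone axis, where all 6 do. Among 9 adaptors 2 had a peak and 3 have such a transcript. In the phosphoinositide and mTOR branch 8 of 26 genes had a peak and 8 of the 26 have such a transcript, and in the MAP kinase branch both counts were 4 of 10. None passed the test: coverage lay without overlap below Ningxiang in Large White for 4 and above it for 1, and the adjusted p over all genes was 0.935 for each, with an exact permutation p of 0.1 (n = 3 per breed). The 4 were IGFBP2, IGFBP5 and IGFBP7, which belong to or are named with the IGF binding proteins, and IRS1, the substrate that IGF1R phosphorylates. IGFBP3, the main carrier of circulating IGF, was the gene with more coverage in Large White. Of 27 genes these are 14.8% and 3.70%, beside 2.92% and 7.78% of all genes; the list was compiled with earlier results of these data known, and the shares were not tested.

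IRS1 covered 1529, 1199 and 1378 exonic bases in Large White replicates 1, 2 and 3, and 1709, 1650 and 1590 in Ningxiang replicates 1, 2 and 3. IGFBP5, the binding protein most tied to muscle differentiation, covered 624, 599 and 542 bases in Large White and 644, 717 and 677 in Ningxiang, in the same order of replicates. For IGFBP5 the nearest lists of the breeds were 20 bases apart, less than a 30-base step of the peak edges. IGFBP7 covered 0, 119 and 148 bases in Large White and 415, 178 and 385 in Ningxiang. IGFBP2 had no peak in the Large White lists and covered 325, 118 and 119 bases in Ningxiang, while IGFBP3 covered 150, 149 and 120 bases in Large White and had no peak in Ningxiang.

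Upstream of the ligands, GHR, the growth hormone receptor that drives IGF1 expression, covered 1008, 948 and 919 bases in Large White replicates 1, 2 and 3, and 356, 919 and 830 in Ningxiang replicates 1, 2 and 3. These overlap, since the value of 919 occurs in both breeds. STAT5A and STAT5B, which carry its signal, and SOCS2, which restrains it, had peaks in all 6 lists, with best folds from 1.79 to 17.4. Downstream, peaks in all 6 lists were found on 4 of 8 genes with any peak in the phosphoinositide branch, among them AKT1, FOXO1 and FOXO3, and on MAP2K2 of the MAP kinase branch, 1 of 4. No peak was listed on the 3 genes of insulin and its receptors, the 4 regulators of IGF mRNA or the 5 sorting partners of IGF2R. None of those regulators and sorting partners has a curated transcript under its symbol in the RefSeq table. The same holds for INSR and IRS2. FOXO1 lacks it too and still had peaks, so the table does not settle which genes could carry a peak, and no statement is made on genes without both. Among them are ZBED6, the repressor of IGF2 in pig muscle, and IGF2BP1, IGF2BP2 and IGF2BP3, which bind m6A.

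**Figure D5:**
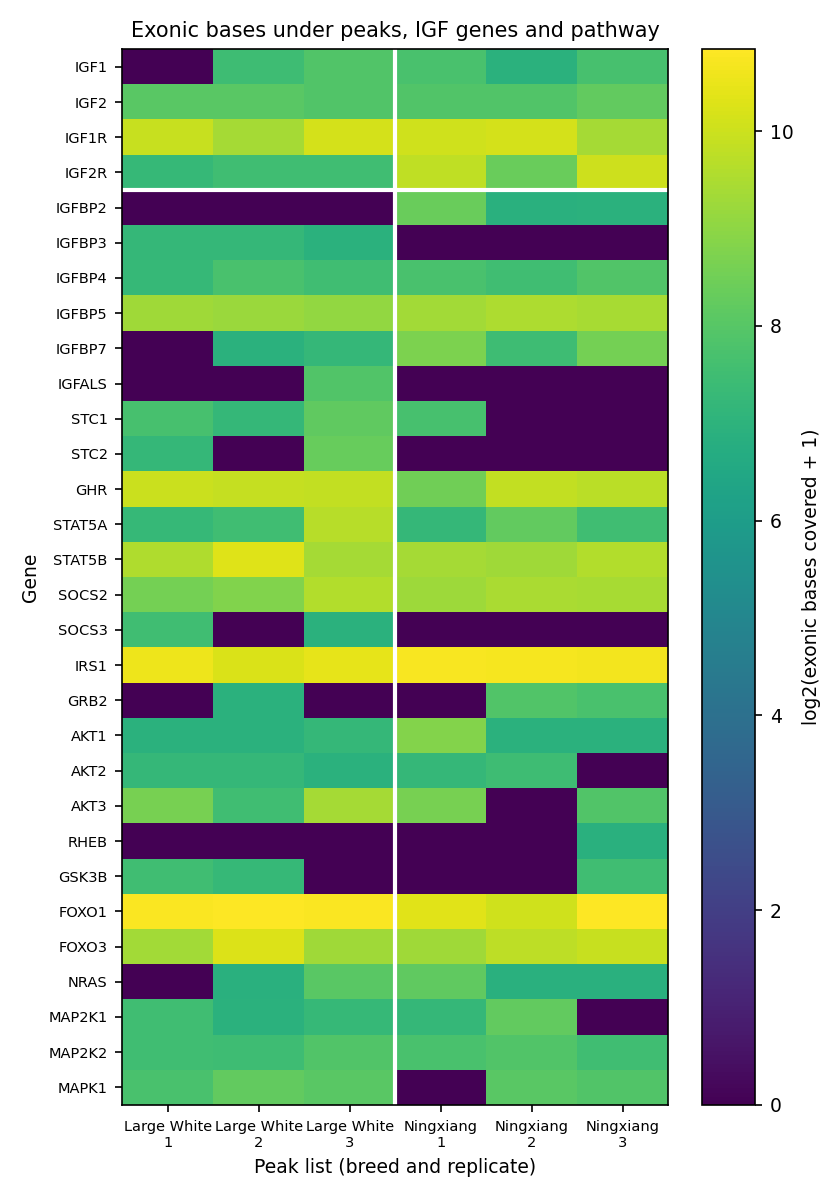
Exonic bases covered by peaks, as log2(bases + 1), for the 4 members (above the white line) and 26 of the 27 pathway genes with a peak, with a column per list and Large White to the left of Ningxiang. Dark cells are lists with no peak, as for IGF1 in Large White replicate 1 and for IGFBP2 in all Large White lists.

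For each member, the genes with the highest Pearson's r of coverage across the 6 lists were picked among genes with a peak in at least 4 lists. Among the closest to IGF2R were COL5A1, a fibrillar collagen chain (r = 0.971), and STARD10, a lipid transfer protein (r = 0.961). Closest to IGF1R were SGTA (r = 0.980), VLDLR (r = 0.974) and SDC2 (r = 0.939). For IGF2 they were RTCA (r = 0.955), ID2 (r = 0.935) and NFATC2 (r = 0.924), and for IGF1 MISP3 (r = 0.945), DPM2 (r = 0.918) and BCKDHA (r = 0.889). Each r rests on 6 lists that share depth and calling threshold across genes, and is a description of 3 picked from 1272 genes. Some rest on small steps: BCKDHA covered 150 bases in Large White replicate 1 and 180 in every other list, and IGF2 ran only from 239 to 298. Whether r this high arises without any relation was not tested.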

How the data were processed

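Peaks were called per replicate by the authors; which aligner and caller they ran is not given in the sources used here. Per the submitters' processing notes, FastQC 0.11.9, HOMER, ChIPseeker 1.30.2 and the build susScr11 were used. Per the file headers, each deposited peak has a p-value, its log10 (handled as a score, since it runs far below the usual range), a fold enrichment, which is a linear ratio, its exonic blocks and its gene. These are the authors' values, used only within a list. Each list was assigned to the immunoprecipitated sample whose description names it; the matching input names the same list.

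Starts were raised by 1 to count from 1. Minus-strand exon numbers, which rise along the chromosome in the lists, were turned round, and blocks of a peak were taken as consecutive exons. Peak number and exonic bases covered (union of blocks) were compared for all 2159 genes by exact two-sided permutation over the 6 lists, with Benjamini-Hochberg adjustment over all genes; 3 against 3 cannot give p below 0.1. Peaks sharing at least 1 bp formed a site. No overlap means that every list of a breed lies beyond every list of the other. The code was tested on simulated lists. No genome sequence was used here, so motifs and stop codons were not located. Depth is unknown, so no counting intervals are given. The members and gene lists were chosen with earlier results of these data known. Genes named were the 4 members, pathway genes whose breeds did not overlap, 8 fixed pathway genes, and the 3 genes most correlated with each member (some genes are not reported here); the further pathway and marker genes, FYCO1 and XIRP1 were named after their values were seen. Computations ran in Python 3.11.15 with NumPy 2.4.6 and pandas 2.3.3.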

Additional observations from a re-analysis of the deposited data

How the results depend on the processing

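For IGF2R, the mean differences in coverage and peak number kept their sign under every alternative run. The separation of the breeds did not, since they overlapped on both measures with the stronger 50% of each list. Leaving out a list gave -793 to -447 bases and -3 to -2 peaks for Large White minus Ningxiang. Lists of the same replicate number had correlations of deviations of 0.0425, 0.0506 and 0.0222 between breeds, below the threshold of 0.1 used for pairing. Unlike numbers gave -0.0945 to 0.0514. These values cannot exclude a batch shared by replicate number. With a replicate block the IGF2R difference of -582 bases had an exact sign-flip p of 0.25, the smallest that 3 pairs allow. With complete pairs the block leaves every difference as it is and changes only its p.

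The other members had no settled direction. With the stronger 50% of each list, the difference for Large White minus Ningxiang was 9.67 bases for IGF1 and 130 for IGF1R, and 0 and 0.333 peaks; merged regions in all 6 lists numbered 0 for IGF1R and 0 for IGF2R; and genes without overlap numbered 102 with more and 26 with less coverage in Large White, against 168 and 63. In IGF2R that setting gave -1 peak (exact permutation p = 0.4). With equal list length IGF1R differed by -0.333 peaks and -90.3 bases, against 0 and -30.3. By genomic span it differed by 3579 bases. Leaving out a list gave -89.0 to 29.5 bases for IGF1, -9.50 to 20 for IGF2 and -170 to 94.7 for IGF1R, -0.500 to 0 peaks for IGF1 and -0.333 to 0.333 for IGF1R, and 0 to 1 shared regions for IGF1. With an overlap of 50% of the region required, shared regions numbered 2 for IGF1R and 1 for IGF2R. Taking the leading IGF1R site by fold, chosen after seeing the data, changed the difference in lists led by the 3′ end to 0, where it was 3 by p. The cause of these changes was not tested. Unknown depth limits every statement on a gene or site without a peak.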
